A study of Rattus norvegicus with 14 samples.

Results

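The genes described here encode the subunits of heterotrimeric G proteins and the regulators of G protein signalling (RGS proteins), 42 genes chosen by name: 12 α subunits, 5 β subunits, 9 γ subunits and 16 RGS genes. They were followed in primary rat hippocampal cultures in which allopregnanolone (Allo), a neurosteroid made from progesterone, was compared with its vehicle. Of the 42 genes, 41 averaged 10 or more normalized counts in at least 1 cell type and 37 did so in both, which left 40 members among 15314 tested genes in neurons and 38 among 15380 in astrocytes. Rgs5 fell below this minimum in neurons, Rgs4, Rgs7 and Rgs9 fell below it in astrocytes, and Rgs11 was not analysed here.

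All cultures came from the hippocampus of Sprague Dawley rat embryos at day 18 of gestation, and all of them, vehicle included, were kept in a supplement-reduced medium, the Aging Model (AM). Neurons on culture day 10 spent 4 h in AM and then received 100 nM Allo (AM-Allo, n = 4) or vehicle (AM-Veh, n = 4) for 16 h. Astrocytes spent 24 h in AM and then 24 h with 100 nM Allo (n = 3) or vehicle (n = 3). RNA was sequenced after poly(A) selection. The sources used here do not say whether libraries of a group came from separate cultures, so p-values measure the spread between libraries, which may be technical.

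A heterotrimeric G protein carries the signal of a receptor that spans the membrane. The activated receptor makes the α subunit exchange GDP for GTP and part from the βγ dimer, and both then act on enzymes and ion channels. The α subunit ends the signal by hydrolysing GTP, and RGS proteins speed this step. In hippocampal neurons, Gi/o proteins lower cyclic AMP and open inwardly rectifying potassium channels, Gs raises cyclic AMP, and Gq/11 activates phospholipase C, which releases calcium from internal stores.

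The labelled cell types were checked against marker genes, in CPM, a library's normalized counts scaled to one common total over all listed genes. The neuron cultures expressed Map2 at 1116 and Tubb3 at 407 in AM-Veh, and they also held astrocyte RNA, with Gfap at 4247. The astrocyte cultures expressed Gfap at 5694. Of the 11 neuron markers listed there, which summed to 1147 to 1190 in AM-Veh, Tubb3 was at 1.35 and the vesicular glutamate transporter Slc17a7 at 0.0550, whereas Stmn2 was at 913, Map2 at 162 and Gad1 at 75.5, beside 56.5 for Gad1 in neurons. In bulk RNA of such mixed cultures, fewer cells of a type and less RNA per cell cannot be told apart. Neuron libraries carried numbers in 2 parts, and the first principal component of all tested genes, 31.9% of the variance, separated the libraries numbered 1- from those numbered 2-. In astrocytes the library AM-Allo 3 stood apart on the first component, which held 29.9% of the variance. Each library held an estimated 19600000 to 28700000 reads.

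In neurons, a few regulators and βγ subunit genes were lower after Allo, and no α subunit gene passed the test. Rgs4, a regulator of Gi/o and Gq proteins, fell most, by 0.83 on the log2 scale. Rgs2, which acts mainly on Gq, Rgs10, and the subunit genes Gng4 and Gnb3 also fell, and the γ subunit gene Gng2 rose, each at an unadjusted limma p under 0.05. These 6 genes were 15% of the 40 members, beside 5.69% of all genes tested in neurons. The members were chosen with earlier results of these data known, and Rgs4 and Gnb3 were singled out beforehand. The excess is therefore not an independent result about these gene families. By direction, 5 members fell, against a background of 2.48%, and 1 rose, against 3.21%. Only Rgs4 passed after Benjamini-Hochberg adjustment over all genes, a threshold that 0.0261% of genes passed. Over all 40 members, 24 fold changes were above 0 and 16 below, with a median log2 fold change of 0.01 beside −0.0015 for all genes tested. The Allo and vehicle libraries did not overlap for 6 members, and 3.95% of all genes tested showed no overlap.

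Libraries with the same number deviated together, as did those that shared the first number alone. The comparison was also fitted with a replicate block by the whole number, the block meant below unless another is named. With the block, 11 members passed the unadjusted threshold, 7 lower and 4 higher, beside 10.7% of all genes. The 5 added to the 6 above were Gnao1, Gng3 and Rgs3, which were higher, and Gng5 and Rgs7, which were lower. Rgs4, Gng4 and Rgs2 passed the adjusted threshold with the block, beside 0.607% of all genes. These 3 genes are the ones whose fall stood clear of the spread in the paired fit, and their promoter sequences are shown first.

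The windows below run from 250 bases before to 50 bases after the annotated start of each gene, from RefSeq on the rat assembly GRCr8. Capitals mark TGACG or its reverse complement CGTCA, the half-site of the cyclic AMP response element, which is bound by CREB. The Rgs4 window lies at chr13:84475835-84476134 on the minus strand, the Rgs2 window at chr13:58352617-58352916 on the minus strand, and the Gng4 window at chr17:93432945-93433244 on the plus strand.
Rgs4: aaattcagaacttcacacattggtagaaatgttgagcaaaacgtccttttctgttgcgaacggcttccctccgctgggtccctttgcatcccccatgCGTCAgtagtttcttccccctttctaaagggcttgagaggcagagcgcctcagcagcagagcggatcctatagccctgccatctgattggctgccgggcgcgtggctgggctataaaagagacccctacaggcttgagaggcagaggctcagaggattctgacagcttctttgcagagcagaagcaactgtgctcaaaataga
Rgs2: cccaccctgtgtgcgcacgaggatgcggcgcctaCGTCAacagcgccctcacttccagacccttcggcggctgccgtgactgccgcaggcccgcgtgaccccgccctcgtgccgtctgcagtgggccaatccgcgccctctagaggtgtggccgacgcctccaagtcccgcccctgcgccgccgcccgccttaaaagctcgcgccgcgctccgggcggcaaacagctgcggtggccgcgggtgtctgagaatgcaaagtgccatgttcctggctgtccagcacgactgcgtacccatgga
Gng4: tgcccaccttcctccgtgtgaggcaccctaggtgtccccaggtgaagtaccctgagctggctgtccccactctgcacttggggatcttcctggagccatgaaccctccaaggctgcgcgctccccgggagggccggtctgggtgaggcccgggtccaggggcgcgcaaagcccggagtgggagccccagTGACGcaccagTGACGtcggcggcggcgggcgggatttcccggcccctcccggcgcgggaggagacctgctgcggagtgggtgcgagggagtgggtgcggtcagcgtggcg

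The Rgs4 and Rgs2 windows each held 1 half-site, and the Gng4 window held 2, placed 61 and 50 bases before the start. In Rgs4 the match began 153 bases before the start and in Rgs2 it began 216 bases before it. Promoter sequences were matched for 35 of the 42 members, of which 10 (28.6%) held the half-site on either strand: Gnao1, Gnaq, Gnas, Gnb2, Gnb5, Gng4, Gng5, Rgs2, Rgs3 and Rgs4. Of all 33469 promoter windows of this length, 21.2% held it. The full element TGACGTCA, which contains the half-site on both strands, was in the window of Gnao1 and of no other matched member, and in 1.83% of all windows. The AP-1 motif TGANTCA was in the windows of Gnb2, Gng12, Rgs12 and Rgs17, 11.4% of the matched members, and in 7.33% of all windows. A match describes the sequence and is not evidence of binding.

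The 12 α subunit genes were all tested in neurons, and none passed the unadjusted threshold in the unblocked fit. Their log2 fold changes ran from −0.03 for Gnai1 to 0.18 for Gna14, which was close to the minimum count. Gnao1, the α subunit that is characteristic of neurons, had normalized counts of 5424, 5432, 5209 and 5149 in AM-Veh and of 5477, 5629, 5560 and 5517 in AM-Allo (libraries 1-1, 1-2, 2-1 and 2-2 here and below). All 4 Allo libraries of Gnao1 lay above all 4 vehicle libraries, although the difference was small (log2 fold change 0.06 ± 0.03 SE, limma unadjusted p = 0.0507, and 0.0267 with the replicate block). Among the inhibitory subunits, Gnai1, Gnai2 and Gnai3 had fold changes within 0.03 of 0 on the log2 scale. Gnaz, an inhibitory subunit that hydrolyses GTP slowly, was at 0.08. The stimulatory subunit Gnas and its olfactory and striatal relative Gnal were at 0.02 and 0.08, the Gq/11 subunits Gnaq and Gna11 at 0.06 and 0.05, and Gna12 and Gna13, which act on the actin cytoskeleton, at 0.02 and 0.01.

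Among the 5 β subunit genes, Gnb3 alone passed the test in neurons. Gnb3, known best from cone photoreceptors, had low counts in these cultures. Its normalized counts were 66.5, 70.9, 88.9 and 84.5 in AM-Veh and 49.4, 66.3, 60.0 and 47.6 in AM-Allo, so the groups did not overlap, although AM-Allo 1-2 lay just under the lowest vehicle library. The mean went from 77.7 ± 10.7 to 55.8 ± 8.9 (SD, n = 4 each), a log2 fold change of −0.47 ± 0.16 (SE, limma unadjusted p = 0.0121, adjusted p = 0.694). The exact two-sided permutation test gave p = 0.0286, the smallest value that 4 against 4 libraries allow. The difference was −0.26 among libraries numbered 1- and −0.69 among those numbered 2-, on the log2 scale.

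The other 4 β genes had log2 fold changes between 0.02 and 0.04. Gnb1, a widely expressed β subunit, had 11980, 11710, 11740 and 12020 normalized counts in AM-Veh and 12040, 12030, 12430 and 12290 in AM-Allo. The Gnb1 groups did not overlap, but the nearest libraries were close to each other, and the test was not passed (log2 fold change 0.04 ± 0.03 SE, limma unadjusted p = 0.159). Gnb5, the β subunit that pairs with the R7 subfamily of RGS proteins, was at 0.03 with a 95% interval from −0.09 to 0.16.

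The γ subunit genes moved in different directions in neurons. Gng4, which encodes a γ subunit of brain, fell from 612 ± 42.9 to 469 ± 50.7 normalized counts (SD, n = 4 each). The libraries were at 673, 607, 595 and 574 in AM-Veh and at 471, 537, 450 and 417 in AM-Allo, with every Allo library below every vehicle library. The log2 fold change was −0.39 ± 0.08 (SE, limma unadjusted p = 0.000651, adjusted p = 0.353, and 0.0168 with the replicate block). It was −0.34 among libraries numbered 1- and −0.43 among those numbered 2-.

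Gng2, a γ subunit common in neurons, was the γ gene that rose. Its vehicle libraries held 6671, 6027, 6409 and 5888 normalized counts, and its Allo libraries held 6620, 6720, 7916 and 8275. The groups overlapped, because AM-Allo 1-1 lay under AM-Veh 1-1, and the high Allo values were those of the libraries numbered 2-. The log2 fold change of 0.24 ± 0.07 (SE, limma unadjusted p = 0.00893, adjusted p = 0.652) was accordingly made of 0.07 among libraries numbered 1- and 0.40 among those numbered 2-. Gng3, the γ subunit most typical of neurons, had the same form, with 0.0014 and 0.31 within the first numbers and 0.16 ± 0.08 overall (limma unadjusted p = 0.0659). Gng11 had the highest fold change of all members, 0.41, but on means of only 14.6 and 19.9 normalized counts, with a 95% interval from −0.09 to 0.92. The remaining γ genes, Gng5, Gng7, Gng8, Gng10 and Gng12, were between −0.11 and 0.01.

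**Figure D1:**
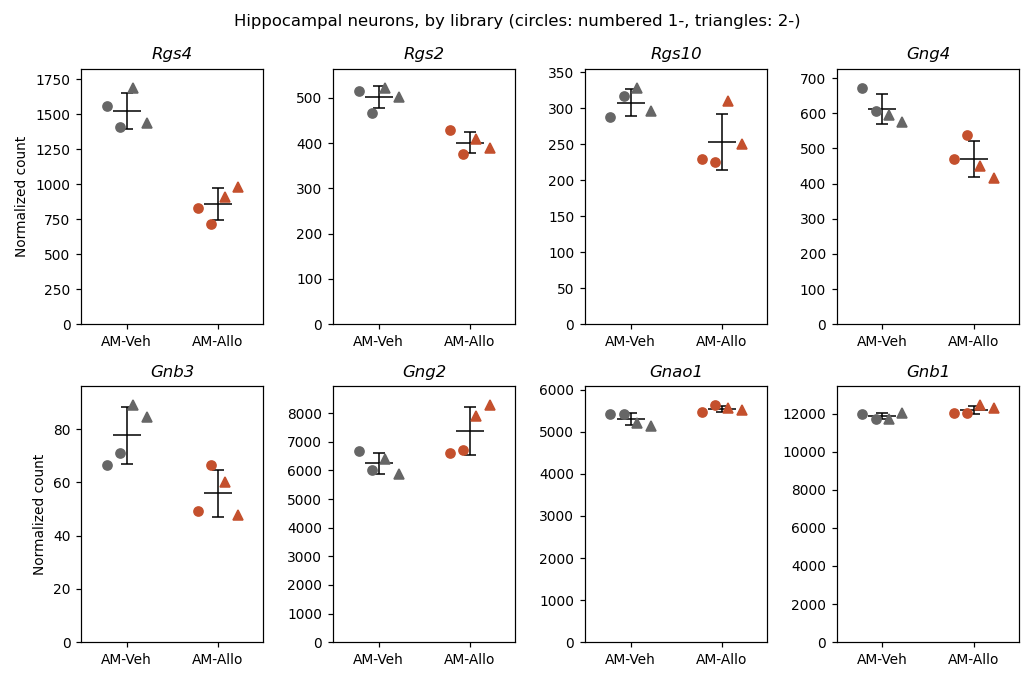
Normalized counts in each neuron library (vertical axes, from 0) for 8 members in AM-Veh (grey, n = 4) and AM-Allo (orange, n = 4); circles are libraries numbered 1-, triangles those numbered 2-, and horizontal marks with bars are the mean ± SD. Rgs4, Rgs2, Gng4 and Gnb3 have every Allo library below every vehicle library, whereas Gng2 is high only in the Allo libraries numbered 2-.

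The RGS genes are grouped here by their usual subfamilies. The R4 subfamily holds small proteins that consist of little more than the RGS domain, and 2 of its 5 tested genes fell in neurons. Rgs4 went from 1524 ± 129 to 859 ± 115 normalized counts (SD, n = 4 each). Its libraries were at 1559, 1409, 1692 and 1436 in AM-Veh and at 833, 714, 909 and 982 in AM-Allo, so that the highest Allo library lay well below the lowest vehicle library. The log2 fold change was −0.83 ± 0.09 (SE, limma unadjusted p = 3.33e-06, adjusted p = 0.0235), with a 95% interval from −1.04 to −0.63. With the replicate block the adjusted p was 3.40e-05. The log2 difference was −0.94 among libraries numbered 1- and −0.72 among those numbered 2-. The exact two-sided permutation test gave p = 0.0286, the smallest possible. Without any 1 library other than AM-Allo 1-2 or AM-Allo 2-2 the adjusted threshold was missed (limma adjusted p = 0.0626 to 0.132), as it was without the trend of the variance with the mean (limma adjusted p = 0.16).

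Rgs2 fell less than Rgs4 and with little spread, from 502 ± 24.3 to 401 ± 23.3 normalized counts (SD, n = 4 each). The vehicle libraries were at 514, 468, 523 and 503 and the Allo libraries at 429, 376, 408 and 389, with a clear gap between the groups. The log2 fold change was −0.32 ± 0.06 (SE, limma unadjusted p = 0.000313, adjusted p = 0.24, and 0.0213 with the replicate block), and it was −0.29 and −0.36 within the first numbers. None of the other tested R4 genes passed without the block. Rgs3 was at 0.12 (limma unadjusted p = 0.252), and Rgs8 and Rgs16, neighbouring genes with no other gene between them on GRCr8, were at −0.04 and −0.03. Rgs5, which also lies next to Rgs4 with no gene between them, had only 4.72 and 6.50 normalized counts in AM-Veh and AM-Allo neurons and was not tested.

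Outside the R4 subfamily, Rgs10 was the only RGS gene that passed. Rgs10 consists largely of an RGS domain and acts on Gi/o proteins. Its libraries were at 288, 317, 329 and 296 normalized counts in AM-Veh and at 229, 226, 309 and 250 in AM-Allo, and the groups overlapped because AM-Allo 2-1 lay among the vehicle values. The log2 fold change was −0.29 ± 0.10 (SE, limma unadjusted p = 0.0181, adjusted p = 0.754), and it missed the unadjusted threshold without AM-Veh 2-1 (limma unadjusted p = 0.0513), AM-Allo 1-1 (limma unadjusted p = 0.0525) or AM-Allo 1-2 (limma unadjusted p = 0.0535). The other R12 genes, Rgs12 and Rgs14, were at 0.03 and 0.01.

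In the R7 subfamily, whose proteins bind Gnb5, Rgs6 was at 0.08, Rgs7 at −0.11 and Rgs9 at 0.01. Rgs7 passed the unadjusted threshold with the replicate block by the whole number (limma unadjusted p = 0.0303), but not with a block by the first number alone (limma unadjusted p = 0.0544) or without a block (limma unadjusted p = 0.213). In the RZ subfamily, which includes regulators of Gz, Rgs17 was at −0.14, Rgs19 at 0.06 and Rgs20 at −0.01, and none passed in either fit.

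**Figure D2:**
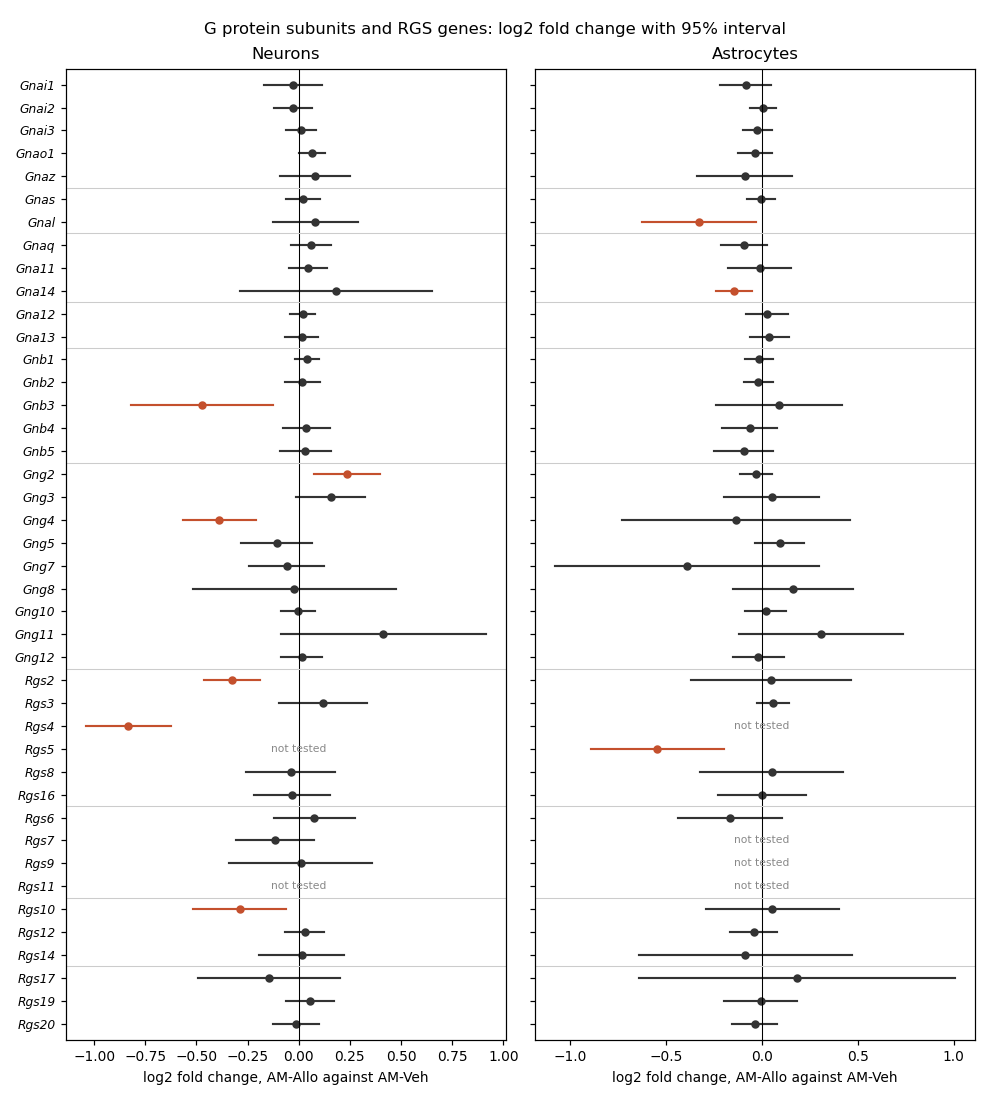
Log2 fold change of AM-Allo against AM-Veh (horizontal axes, points) with its 95% interval (lines) for the 40 members tested in neurons (left) and the 38 tested in astrocytes (right), ordered by family with lines between families; orange marks an unadjusted limma p under 0.05. In neurons 6 members are marked, from −0.83 for Rgs4 to 0.24 for Gng2, and in astrocytes 3, all below 0.

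Markers of cell types were set beside these changes, and their part in them was not tested. The summed level of 11 neuron markers was 2509 to 2824 CPM in AM-Veh and 2629 to 3018 in AM-Allo. Of these markers 5 passed the unadjusted threshold, 3 higher (Map2 0.10, Tubb3 0.21 and Slc17a7 0.29 in log2 fold change) and 2 lower (the neurofilament gene Nefl −0.23 and the GABA-synthesizing enzyme gene Gad2 −0.45). The 10 astrocyte markers summed to 10650 to 12770 CPM in AM-Veh and 10630 to 12460 in AM-Allo, and none passed. Of the 11 oligodendrocyte lineage markers, Cnp passed (0.09 in log2 fold change), with summed levels of 2521 to 2742 CPM in AM-Veh and 2587 to 2929 in AM-Allo. Of the 9 listed pericyte and mesenchymal markers, Tagln passed (−0.31), with summed levels of 334 to 422 CPM in AM-Veh and 287 to 349 in AM-Allo. Microglia, in which Rgs10 is known to be abundant, were nearly absent from the neuron cultures by their defining markers, with Aif1 at 0.107, Cx3cr1 at 0.0907 and P2ry12 at 0.0994 CPM in AM-Veh. Csf1r was at 0.162 and C1qc at 0.0920 CPM there.

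The difference between neuron libraries numbered 1- and 2- was tested for the same members, with treatment in the fit. At an adjusted limma p under 0.05, 6 of the 40 members (15%) differed between the first numbers, beside 17.2% of all genes. Rgs3 was higher in libraries numbered 2- by 0.26 and Gng5 by 0.21 on the log2 scale, while Gnai2 (−0.10), Gnb2 (−0.09), Gnas (−0.08) and Rgs7 (−0.21) were lower there. None of the 6 genes with an unblocked Allo call was among them. Within each first number, the Allo difference had the same sign for 22 of the 40 members and opposite signs for 18. The share over all genes was not computed, so these counts are not compared with other genes.

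**Figure D3:**
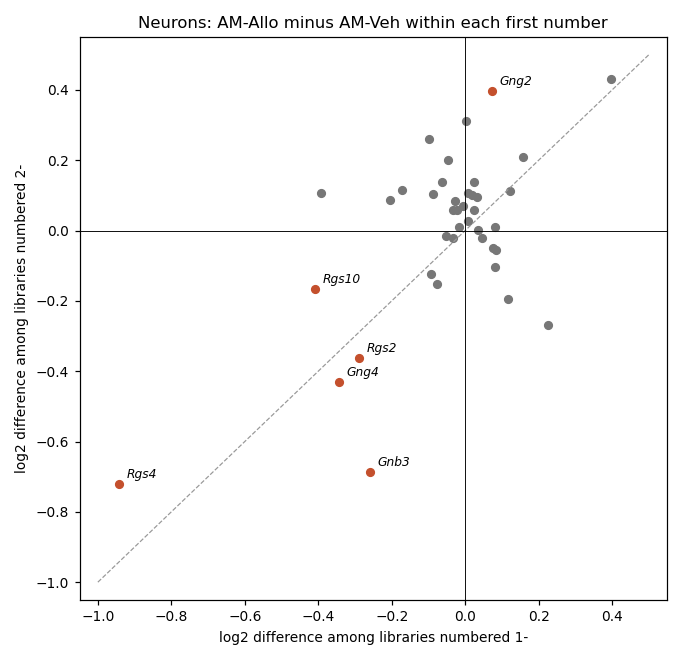
Difference of mean log2(normalized count + 1) between AM-Allo and AM-Veh for the 40 members tested in neurons, among libraries numbered 1- (horizontal axis, 2 against 2 libraries) and 2- (vertical axis, 2 against 2); the dashed line marks equal values and orange names the 6 members with an unadjusted limma p under 0.05. Rgs4, Gng4 and Rgs2 lie near the line, while Gnb3 and Gng2 are larger among the libraries numbered 2-.

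In astrocytes 3 members passed the test, none of them among the 6 called in neurons. Gna14, a Gq-class α subunit, Rgs5, an R4 regulator known as a pericyte gene, and Gnal, the olfactory α subunit, fell after Allo, each at an unadjusted limma p under 0.05, and no member rose. The 3 called genes were 7.89% of the 38 members, beside 7.01% of all genes tested in astrocytes, and thus near the background. By direction the background was 3.29% for falls and 3.72% for rises. No member passed after Benjamini-Hochberg adjustment, a threshold passed by 0.00650% of genes. In all, 14 members were above 0 and 24 below, with a median of −0.02 beside 0.0014 for all genes. The groups did not overlap for 5 members, beside 12.5% of all genes, and 3 against 3 libraries cannot give an exact permutation p under 0.1.

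Gna14 had 2777, 2579 and 2508 normalized counts in the AM-Veh astrocytes and 2344, 2416 and 2352 in the AM-Allo astrocytes (libraries 1, 2 and 3 here and below). Every Allo library lay below every vehicle library, and the change was small, from 2621 ± 140 to 2370 ± 39.5 (SD, n = 3 each), or −0.14 ± 0.04 on the log2 scale (SE, limma unadjusted p = 0.00579, adjusted p = 0.498). Without AM-Allo 3, the library that stood apart, it was also −0.14 (limma unadjusted p = 0.0149). The other Gq/11 genes, Gnaq and Gna11, were at −0.09 (limma unadjusted p = 0.111) and −0.01.

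Rgs5 had 182, 126 and 176 normalized counts in AM-Veh and 123, 109 and 95.9 in AM-Allo. AM-Veh 2 lay just above AM-Allo 1, and the other libraries were further apart. The log2 fold change was −0.55 ± 0.16 (SE, limma unadjusted p = 0.00471, adjusted p = 0.488), and −0.46 without AM-Allo 3 (limma unadjusted p = 0.0188). Beside this, 11 pericyte and mesenchymal markers summed to 4496 to 5329 CPM in AM-Veh and 4946 to 5263 in AM-Allo, none of those tested passed, and the pericyte receptor gene Pdgfrb was at 0.03 in log2 fold change. On this list, Tagln was at 1800, Col1a2 at 1247, Col1a1 at 984, Col3a1 at 370, Acta2 at 347 and Pdgfrb at 165 CPM in AM-Veh. The pericyte channel gene Kcnj8 (0.0430 CPM in AM-Veh) and Des (0.0283) were near 0, and Abcc9 (0.818), Lum (0.340) and Dcn (0.246) were low. The part of such cells in the Rgs5 change was not tested.

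Among microglia markers in the astrocyte cultures, Cx3cr1 passed (−0.58 in log2 fold change, 3.20 and 2.15 CPM), with summed levels of 244 to 270 CPM in AM-Veh and 241 to 252 in AM-Allo, and among astrocyte markers Slc1a2 (−0.36) and S100b (−0.09) passed. Their part in the changes of Gna14, Rgs5 and Gnal was not tested.

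Gnal was the member with the weakest call, with 138, 133 and 128 normalized counts in AM-Veh and 92.0, 118 and 108 in AM-Allo. The groups did not overlap, and the log2 fold change was −0.33 ± 0.14 (SE, limma unadjusted p = 0.0329, adjusted p = 0.684). It missed the threshold without AM-Veh 1 (limma unadjusted p = 0.0864), AM-Veh 2 (limma unadjusted p = 0.0674), AM-Veh 3 (limma unadjusted p = 0.0505) or AM-Allo 1 (limma unadjusted p = 0.138). Without AM-Allo 3 it was −0.35 (limma unadjusted p = 0.0420). Gnas, the related stimulatory subunit gene, was at −0.01.

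Among the tested members, Gng11 and Rgs3 had every Allo library above every vehicle library in astrocytes, and neither passed the test. Gng11 had 38.4, 40.7 and 37.9 normalized counts in AM-Veh and 50.5, 49.6 and 45.7 in AM-Allo, a log2 fold change of 0.31 ± 0.20 (SE, limma unadjusted p = 0.141). Rgs3 had 2374, 2286 and 2384 in AM-Veh and 2401, 2426 and 2508 in AM-Allo, a log2 fold change of 0.06 ± 0.04 (SE, limma unadjusted p = 0.157). The gap between the Rgs3 groups was smaller than the spread within either group.

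The genes that changed in neurons were low or not called in astrocytes. Gnb3 had 98.0, 93.1 and 105 normalized counts in AM-Veh and 125, 95.3 and 97.2 in AM-Allo, with overlapping groups and a log2 fold change of 0.09 (95% interval −0.24 to 0.42). Rgs2 was at 0.05 (−0.37 to 0.46), Gng4 at −0.14 (−0.73 to 0.46), Rgs10 at 0.05 (−0.29 to 0.40) and Gng2 at −0.03 (−0.12 to 0.05) in log2 fold change. Rgs4 was counted at 2.05, 6.24 and 4.84 in AM-Veh and at 6.39, 8.74 and 10.8 in AM-Allo, groups that did not overlap but lay below the minimum, so no test was made. The difference of the Allo effect between neurons and astrocytes was not tested, since the tables were normalized separately and the exposure times differed.

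**Figure D4:**
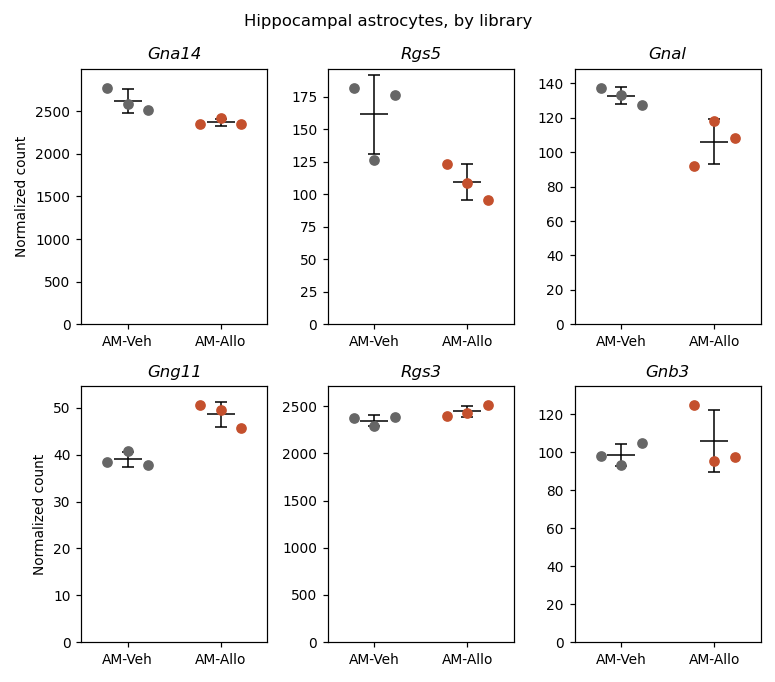
Normalized counts in each astrocyte library (vertical axes, from 0) for 6 members in AM-Veh (grey, n = 3) and AM-Allo (orange, n = 3), with the mean ± SD. The Gna14, Rgs5 and Gnal groups separate downward and the Gng11 and Rgs3 groups upward, with narrow gaps for Rgs5 and Rgs3. Gnb3 overlaps, with AM-Allo 1 high.

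With a mean of at least 1000 normalized counts, 20 members in neurons and 15 in astrocytes were measured. Of these, 2 (Rgs4 and Gng2) and 1 (Gna14) passed the unadjusted threshold, beside 5.69% and 7.01% of all genes tested at any level. Among the others, the log2 fold change was at most 0.16 in size in neurons and 0.09 in astrocytes. Their 95% intervals all lay within −0.28 to 0.33 in neurons and within −0.21 to 0.22 in astrocytes.

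Levels in the vehicle cultures were set side by side in CPM, as a description without a test, since the cell types were normalized in separate tables. The ranges of the 4 neuron and 3 astrocyte libraries lay apart for 38 of 41 members, 30 higher in neurons and 8 higher in astrocytes, and overlapped for Gnas, Gnb3 and Rgs16. Over all 16068 genes compared in this way, 79.7% lay apart, 44.9% higher in neurons and 34.8% higher in astrocytes.

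Among the members tested in both cell types, the γ subunit gene Gng7, known from striatum, was 32.9-fold higher in neurons (30.4 ± 2.72 against 0.923 ± 0.154 CPM, SD, n = 4 and 3). Gng4 was 26.6-fold higher (27.6 ± 2.13 against 1.04 ± 0.217), Gng3 8.02-fold and Rgs2 7.60-fold. Rgs7 was at 33.5 ± 3.49 CPM in neurons and at 0.0286 ± 0.0495 in astrocytes, and Rgs4 at 68.8 ± 5.63 and 0.183 ± 0.0886. Of the 6 genes called in neurons, Rgs4, Rgs2, Gng4, Rgs10 and Gng2 were thus higher in neurons, and Gnb3 was at 3.50 ± 0.453 and 4.13 ± 0.255.

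Gna14 showed the opposite pattern, with 0.734 ± 0.101 CPM in neurons and 110 ± 6.16 in astrocytes, 150-fold higher. Gng8 was 3.71-fold, Gng11 2.47-fold and Rgs3 2.19-fold higher in astrocytes, and Rgs5 was at 0.213 ± 0.113 in neurons and 6.76 ± 1.30 in astrocytes. Gnb1 was at 535 ± 8.02 and 344 ± 4.51 CPM and Gna12 at 395 ± 7.27 and 149 ± 8.79. Gnas was at 629 ± 35.2 and 654 ± 8.76 CPM, Gnai2 at 750 ± 41.9 and 909 ± 4.74, and Gnb2 at 433 ± 22.4 and 355 ± 8.58.

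**Figure D5:**
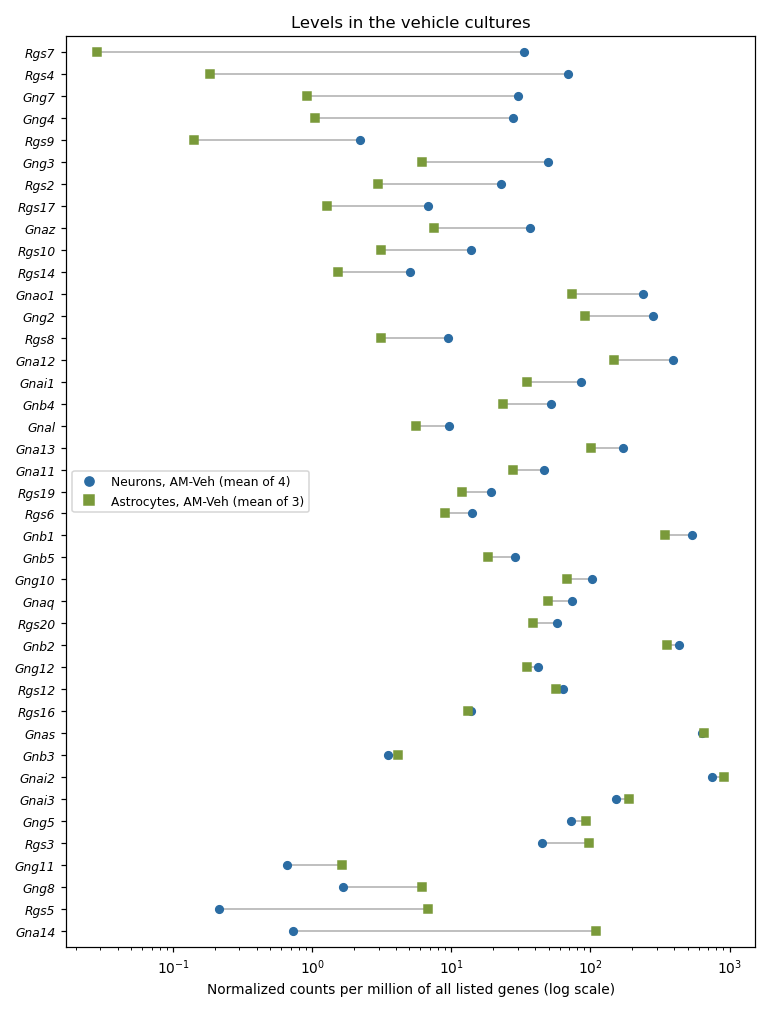
Mean level of 41 members in the AM-Veh cultures, in CPM of the normalized counts over all listed genes (horizontal axis, log scale), for neurons (circles, n = 4) and astrocytes (squares, n = 3), ordered by their ratio. Rgs7, Rgs4, Gng7 and Gng4 stand at the neuron end and Gna14 and Rgs5 at the astrocyte end, while Rgs16, Gnas and Gnb3 are nearly level.

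Other genes of the pathway were taken from lists of receptors, effectors and regulators, at the same unadjusted limma threshold. These lists, too, were chosen with earlier results of these data known. In neurons, 3 of 27 tested Gi/o-coupled receptor genes passed without the block, all higher (11.1%, beside 5.69% of all genes), and 6 passed with it, 4 higher and 2 lower, beside 10.7%. Htr1a, the serotonin 1A receptor, rose by 0.99 ± 0.21 (SE) on the log2 scale from a mean of 13.4 normalized counts, the histamine H3 receptor gene Hrh3 by 0.48 ± 0.12, and the somatostatin receptor gene Sstr4 by 0.28 ± 0.13, the last without the block alone (limma unadjusted p = 0.0489, and 0.0729 with it). Of 21 tested Gq/11-coupled receptor genes, 4 passed without the block, 2 higher and 2 lower (19%, beside 5.69% of all genes). With the block 5 passed, beside 10.7%. Among the 4, the metabotropic glutamate receptor gene Grm5 rose (0.16 ± 0.05), and the bradykinin receptor gene Bdkrb2 (−0.41 ± 0.12) and the thrombin receptor gene F2r (−0.16 ± 0.07) fell. The melanocortin receptor gene Mc4r (−0.63 ± 0.28) alone passed among 14 Gs-coupled receptor genes (7.14%).

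Of 22 effector genes, 3 passed (13.6%, beside 5.69% of all genes). The adenylyl cyclase genes Adcy1 (0.23 ± 0.09) and Adcy5 (0.11 ± 0.05) rose, and Kcnj9 (−0.27 ± 0.08), a subunit of the potassium channel opened by βγ dimers, fell. Rasd2, a small GTP-binding regulator of G protein signalling, fell (−0.27 ± 0.10) as 1 of 15 regulators (6.67%). None of 7 receptor kinase and arrestin genes passed at the unadjusted threshold, with or without the replicate block. None of the genes on these lists passed the adjusted threshold without the block, and F2r passed it with the block (limma adjusted p = 0.0326).

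In astrocytes, 1 gene passed in each of 3 lists and none rose. The lists were 7 other subunit and RGS genes (14.3%), 7 receptor kinase and arrestin genes (14.3%) and 16 Gq/11-coupled receptor genes (6.25%). Of all genes tested there, 7.01% passed. The RGS-domain gene Rgs22 (log2 fold change −0.18 ± 0.06, SE), the arrestin gene Arrb1 (−0.14 ± 0.05) and the endothelin receptor gene Ednra (−0.13 ± 0.05) fell. The 14 Gi/o-coupled and 10 Gs-coupled receptor genes, the 22 effectors and the 14 regulators tested there had no unadjusted limma p under 0.05.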

How the data were processed

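Per the submitters' processing notes and methods, the authors quantified reads with Salmon 0.14, imported gene estimates and scaled them with DESeq2 1.18.1, separately for neurons and astrocytes. They deposited normalized counts, a signal that is no longer whole reads, and variance-stabilized (VST) values on a log2 scale. Salmon shares reads among similar transcripts, so counts of related genes are estimates. The deposited VST values of neurons had equal means in libraries numbered 1- and 2- for all 18239 genes (tolerance 1e-06), so that difference had been removed from them.

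From the normalized counts, genes with a mean of at least 10 were fitted on log2(normalized count + 1) with limma 3.58.1 (R 4.3.3, eBayes with trend), AM-Allo against AM-Veh within each cell type, with Benjamini-Hochberg adjustment over all genes tested and a threshold of 0.05 on unadjusted and adjusted p. The pseudocount understates changes of low genes. The fit was tested on simulated data with independent libraries and no difference between first numbers, so that test does not cover this feature of the neuron libraries. Exact permutation tests were two-sided. Depth was estimated from the value of 1 read in the low counts (0.838 to 1.14 normalized counts).

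The neuron libraries of the same number deviated together (r = 0.229 to 0.296 across genes). So did those that shared the first number alone (r = 0.185 to 0.236), and these ranges overlapped. Libraries of different first number did not (r = −0.319 to −0.15). Deviations were taken from the mean of each group, so positive values for some pairs come with negative values for others. The pairing comes from the titles' numbers. Astrocyte numbers did not pair (r = −0.00698 to 0.0241). Values in every library are given for Rgs4, Gnb3, every member with an unadjusted p under 0.05 and every member whose groups did not overlap. Gene lengths were not used, so levels are not compared between genes. From the pathway lists, at most the genes that passed are named, and some items are not reported here. Members and lists were chosen with earlier results of these data known. The alternatives were other pseudocounts, filters, scalings, variance models, the VST values, replicate blocks and the leaving out of each library. Promoters came from RefSeq (GRCr8).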

Additional observations from a re-analysis of the deposited data

Results flagged for a closer look

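Of 80 groups of 4 neuron libraries, 6 had 1 library far from the other 3 by Dixon's criterion, where chance gives about 1 in 20. Gnai3 was high in AM-Veh 2-1 (3518 normalized counts, others 3286 to 3310). Gna12 was low in AM-Veh 2-1 (8596, others 8794 to 8819). Gnb4 was low in AM-Veh 2-2 (1101, others 1158 to 1166) and Gng10 was low in AM-Allo 2-2 (2168, others 2293 to 2304). Rgs12 was high in AM-Veh 1-2 (1502, others 1368 to 1376), and Rgs20 was low in AM-Veh 1-1 (1218, others 1280 to 1289). None of these genes passed the Allo test in neurons, and no library was set apart in more than 2 of them.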

How the results depend on the processing

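In neurons the number of members called at an unadjusted p, 6, became 12 with the VST values and 11 with the replicate block by the whole number. It was 10 with the block by the first number and 10 with both VST values and that block, a combination chosen after seeing the data. Over all genes tested, 872 calls became 2204, 1634, 1684 and 1694 in the same settings. With each library left out, 5 to 8 members were called, beside 680 to 968 of all genes tested. Rgs4 kept its log2 fold change of −0.83 but lost the adjusted threshold without the variance trend (limma adjusted p = 0.16). Leaving out each library gave −0.90 to −0.75, with an adjusted p of 0.0626 to 0.132 in 6 of the 8 fits, and under 0.05 without AM-Allo 1-2 (0.0198) or AM-Allo 2-2 (0.0287). The blocked fits changed no call of Rgs4 or Gnb3. Members that differed between first numbers were 2 instead of 6 without the trend. Over all genes tested in neurons, 4 passed the adjusted threshold, against 158 with the VST values and 93 and 104 with the blocks. Without the trend 0 did, and 904 passed unadjusted. The VST fit without a block took no account of the difference removed from these values, so its p-values are too small. With the block by the first number, 105 genes passed the adjusted threshold on the VST values.

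In astrocytes the members called were 3, and 2 to 4 when each library was left out, beside 1078 and 786 to 1280 of all genes tested. Without the variance trend 4 members were called, with Gng11 added (limma unadjusted p = 0.00215, adjusted p = 0.728), beside 994 of all genes. The replicate block by number left 3 members called, and 17 genes instead of 1 passed the adjusted threshold. Of the calls over all genes, 53.1% were higher, and 39% after upper-quartile scaling. No direction of a called member reversed under any alternative. The difference between first numbers could not be fitted on the VST values, because it had been removed from them. Low counts limit what could be detected. In astrocytes this holds for Gng7, Gng4 and Rgs17 (means of 19.5, 23.6 and 32.4 normalized counts). In neurons it holds for Gng11, Gna14, Gng8, Rgs9 and Gnb3 (17.3, 17.4, 35.8, 49.6 and 66.8).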
